A study of Mus musculus with 70 samples.

Results

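Glutamate, γ-aminobutyric acid (GABA) and glycine are the fast transmitters of the brain, and 7 genes that mark the neurons releasing them were followed here through 24 sample groups of a mouse brain RNA-Seq series. The genes were taken by name from the gene-level table, in which 34677 genes have a value in TPM (a level corrected for transcript length and scaled to a fixed total per library). Vesicular glutamate transporters load glutamate into synaptic vesicles and are encoded by Slc17a7 (VGLUT1), Slc17a6 (VGLUT2) and Slc17a8 (VGLUT3). The vesicular inhibitory amino acid transporter encoded by Slc32a1 (VGAT) loads both GABA and glycine, glutamate decarboxylases encoded by Gad1 (GAD67) and Gad2 (GAD65) make GABA from glutamate, and the plasma membrane transporter encoded by Slc6a5 (GLYT2) marks glycine neurons. VGLUT1 is best known from cortical pyramidal cells and cerebellar granule cells, VGLUT2 from subcortical projection neurons, and VGLUT3 from scattered cells that often release another transmitter as well, including serotonin neurons.

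All brain tissue came from unmanipulated mice, labelled C57BL/6 and given as C57BL/6NTac in the study's methods, and no group carried a transgene or a treatment. The 57 adult libraries (P56, all male) were punch biopsies of 18 regions. These were the anterior cingulate area (ACA), frontal pole cortex (FRP) and entorhinal area (ENT) of the cortex, the nucleus accumbens (ACB), the ventral tegmental area (VTA), and 5 hypothalamic territories, namely the lateral hypothalamic area (LHA) and the paraventricular (PVH), dorsomedial (DMH), ventromedial (VMH) and arcuate (ARH) nuclei. The hindbrain was sampled in the parabrachial nucleus (PB), the nucleus of the solitary tract (NTS) and the dorsal-vagal complex (DVC), and the cerebellum in its deep nuclei (CBN) and in the lobules CENT2, CUL4-5, UVU and FL (central lobule II, culmen, uvula and flocculus). The 9 embryonic libraries (E14.5) covered forebrain (F), midbrain (M), hindbrain (H) and the terminal and peduncular hypothalamus (THy-PHy), and 4 libraries came from C57BL/6 mouse embryonic stem cells (mESC), 2 from each of 2 clones. CENT2, CUL4-5, DMH, FL and NTS had 4 libraries, M, PVH and VMH 2, F 1, and the other brain regions 3. Per the study's methods each brain library pooled the tissue of several mice (1 ACB library excepted), and libraries of different regions shared mice. P-values of the gene tests therefore measure the spread between tissue pools. In the tests of transporter and enzyme shares, a side that joins several regions also holds the spread between those regions, as does its SD. Tissue was collected and prepared in several batches, for which the study's methods refer to its supplement. Those batches were not matched to libraries here, and no batch term was fitted. The sample labels name no batch and do not show whether adult, embryonic and mESC material shared batches. Stage and preparation batch therefore cannot be told apart here.

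Depth ranged from 9074581 to 22229582 estimated counts per library, with a median of 17016935. Marker genes for the labels were highest in the named region for Agrp in ARH (132 TPM), Nr5a1 in VMH (33.6 TPM), Oxt in PVH (1264 TPM), Hcrt in LHA (1446 TPM) and Slc6a3 in VTA (417 TPM). Calca, a marker for PB, was about as high in DVC (39.4 TPM) as in PB (39.2 TPM). Hcrt was also found in VMH (799 TPM) and Oxt in ARH (356 TPM). Summed pluripotency markers were 1818 to 1926 TPM in the mESC libraries and at most 17.2 TPM in any brain library. VTA replicate 1 stood apart, with 39.6% of its TPM in mitochondrial genes against a median of 7.489%. Its Slc32a1 (22.5 TPM) and Gad1 (57.4 TPM) were the lowest of the adult libraries. H replicate 1 also stood apart, with 22.6% mitochondrial TPM and the lowest depth of the series.

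**Figure D1:**
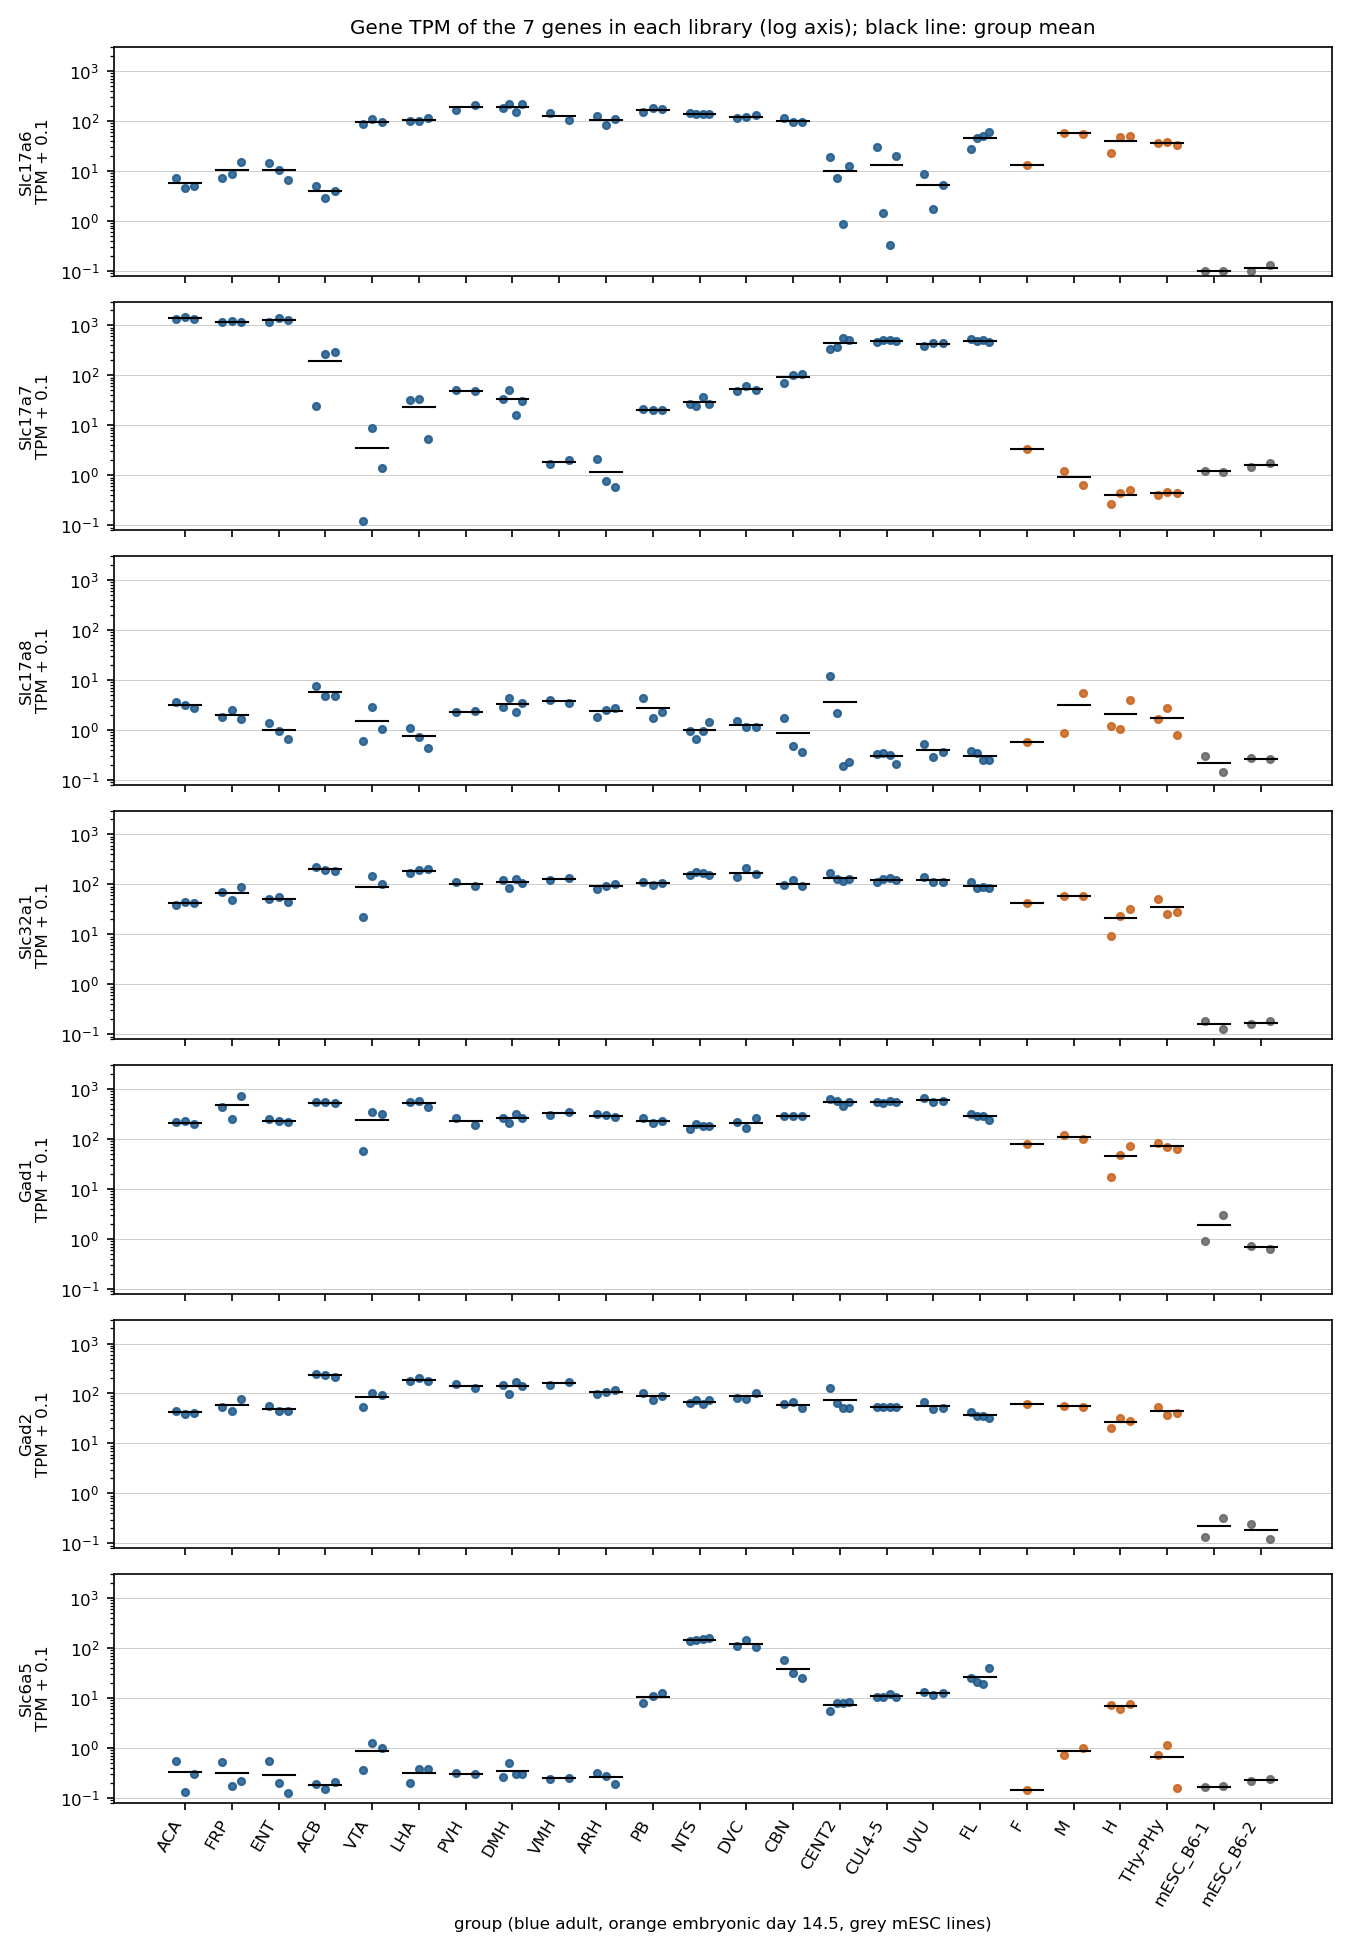
Level of the 7 transmitter genes in each library of the 24 groups, as TPM + 0.1 on a log axis, with 1 point per library (blue adult, orange embryonic, grey mESC) and a line at the group mean. Slc17a7 is highest in cortex and cerebellar lobules, Slc6a5 is at least 5.33 TPM in the libraries of PB, NTS, DVC, cerebellum and embryonic H, and Slc17a8 is at most 11.8 TPM in any library.

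The vesicular glutamate transporters divided the adult brain. Since these were whole-tissue samples, fewer cells of a type and less RNA per cell cannot be told apart. Slc17a7 (chr7:45163949-45176142 in GRCm38, plus strand) was highest in cortex, where the 9 libraries lay between 1144 and 1484 TPM. Its group means were 1385 ± 85.9 in ACA, 1281 ± 103 in ENT and 1184 ± 44.2 TPM in FRP (SD, n = 3 each). The cerebellar lobules came next, at 496 ± 29.7 TPM in FL, 495 ± 19.4 in CUL4-5, 441 ± 103 in CENT2 (n = 4 each) and 422 ± 26.0 in UVU (n = 3). Slc17a6 (chr7:51622006-51671119, plus strand) took the opposite places. Group means reached 190 ± 33.7 TPM in DMH (n = 4), 188 ± 32.2 in PVH (n = 2) and 166 ± 16.4 in PB (n = 3), whereas cortex held 4.51 to 14.9 TPM and ACB 2.82 to 4.83 TPM. From VTA to CBN, through hypothalamus and hindbrain, every library held at least 82.1 TPM of Slc17a6.

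Against the mean of the other 21 brain regions, Slc17a6 was higher in 10 regions (VTA, the 5 hypothalamic territories, PB, NTS, DVC and CBN) and lower in 7 (the 3 cortical regions, ACB, CENT2, CUL4-5 and UVU). A call needed an adjusted p under 0.05 in edgeR's quasi-likelihood test over 19980 genes and an absolute log2 fold change above 1. The VMH call of Slc17a6 was lost without VMH replicate 1 (log2 fold change 1.39, adjusted p = 0.103, edgeR) and with limma at the smaller pseudocount (adjusted p = 0.0539). Slc17a7 was higher in 9 regions (the 3 cortical regions, ACB, CBN and the 4 lobule groups) and lower in 7 (VTA, VMH, ARH and all 4 embryonic regions). Over all 7 genes, 46 of 154 gene and region pairs were called higher and 39 lower, where the background over all genes was 9.76% higher and 6.45% lower (16.2% in either direction, and 7.52% to 35.5% in single regions). Both transporters were called higher in CBN, by 1.68 ± 0.35 (SE) for Slc17a6 and 1.68 ± 0.31 for Slc17a7 on the log2 scale. The Slc17a7 call in CBN was lost when only adult regions formed the comparison group (0.38).

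Neighbours in the order of levels often differed by less than their spread. Of the 21 adjacent pairs among the 22 brain regions, the means differed by more than the larger SD in 3 for Slc17a6, 8 for Slc17a7, 2 for Slc17a8, 3 for Slc32a1, 4 for Gad1, 7 for Gad2 and 8 for Slc6a5. In the Slc17a6 order the wide steps were PB over NTS (166 against 138 TPM), VTA over embryonic M (84.5 to 109 against 55.1 and 56.8 TPM) and THy-PHy over F (35.3 against 13.1 TPM). The widest in the Slc17a7 order was FRP over FL (1184 against 496 TPM).

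The hypothalamus held an inner boundary for Slc17a7. It was 31.8, 32.9 and 5.20 TPM in LHA, 50.5 and 48.3 in PVH, and 33.3, 51.7, 15.8 and 31.2 in DMH. By contrast it was 1.56 and 1.91 TPM in VMH and 1.99, 0.68 and 0.475 in ARH. VMH and ARH did not overlap the other 3 territories. Other markers moved with this boundary. Summed levels of 6 oligodendrocyte markers were 3698 to 13774 TPM in LHA, PVH and DMH and 978 to 3534 TPM in VMH and ARH, without overlap. Of the cortical excitatory neuron markers, Slc30a3 was 4.42 to 14.2 TPM in LHA, PVH and DMH and lower than that in every VMH and ARH library, while Tbr1 (0.42 to 16.2 against 0.16 to 4.16 TPM) and Neurod6 (0.33 to 4.09 against 0.18 to 0.88 TPM) overlapped. The part of these cells in the Slc17a7 level was not tested. VMH against the mean of the other 4 hypothalamic regions gave a log2 fold change of -3.03 ± 0.69 (adjusted p = 3.70e-03, edgeR), the only one of the 7 genes called, where 2.04% of all genes were. The call was lost without either VMH library (-2.91 and -3.16). Slc17a6 (-0.23 ± 0.54), Slc32a1 (0.09 ± 0.20), Gad1 (0.08 ± 0.20) and Gad2 (0.15 ± 0.19) did not pass.

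ACB carried Slc17a7 in unequal amounts, at 23.9, 263 and 297 TPM. Tbr1, a marker of cortical excitatory neurons, was at 4.32 TPM in the library with 23.9 and at 31.1 and 32.9 TPM in the others, against 67.5 to 107 TPM in the libraries of ACA, FRP and ENT. Neurod6, another such marker, ran from 2.06 TPM in that library up to 18.2 TPM, and Slc30a3 was at 0.44, 5.40 and 7.01 TPM in the same order as Slc17a7. None of these was at 0, and their part in the Slc17a7 level of ACB was not tested. The 3 ACB libraries were close in Slc32a1 (220, 193 and 183 TPM), Gad1 (539, 536 and 527 TPM) and Gad2 (247, 237 and 218 TPM). ACB, whose projection neurons are GABA cells, was the region in which all 7 genes passed, 5 higher and 2 lower, where 8.25% of all genes were called higher and 4.82% lower (13.1% in all). Slc17a7 was higher there by 2.70 ± 0.28 on the log2 scale (2.28 to 3.23 with 1 library left out).

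VGLUT3 was scarce throughout. Slc17a8 (chr10:89574020-89621253, minus strand) had its highest group mean in ACB (5.56 ± 1.64 TPM, n = 3), then VMH (3.63 ± 0.33, n = 2) and CENT2 (3.53 ± 5.59, n = 4). It was called higher in 5 regions (ACA, ACB, DMH, VMH and CENT2) and lower in 3 (CUL4-5, UVU and FL, all near 0.2 to 0.3 TPM). In CENT2 the 4 libraries held 11.8, 2.11, 0.0899 and 0.13 TPM, so that 1 library set the mean. The same libraries held 146, 65.0, 0.27 and 3.27 TPM of Tph2, the serotonin synthesis enzyme, and their 3 serotonin neuron markers (Tph2, Slc6a4 and Fev) summed to 239, 120, 0.49 and 5.76 TPM. In the other lobules that sum was at most 0.95 TPM. Without CENT2 replicate 1 the log2 fold change of Slc17a8 turned from 1.20 to -0.82 and was no longer called, and the part of serotonin neurons in it was not tested. PB and VTA, next to the raphe, gave serotonin sums of 138, 13.1 and 57.1 TPM and of 2.14, 73.7 and 18.8 TPM, with Slc17a8 at 4.28, 1.64 and 2.13 TPM and at 0.49, 2.74 and 0.95 TPM. In both regions the library with the most serotonin markers also held the most Slc17a8. In ACB, with the highest Slc17a8 mean, the same markers summed to at most 0.885 TPM. The ACA call was lost with limma at both pseudocounts (adjusted p = 0.0555 and 0.0569). The DMH call was lost without DMH replicate 2 or 4 (adjusted p = 0.0557 and 0.0543, edgeR) and fell below the fold limit with limma at the larger pseudocount (0.98). The UVU call was lost without UVU replicate 2 or 3 (adjusted p = 0.0784 and 0.0653, edgeR). The VMH call of Slc17a8 was lost with the DESeq2, limma, replicate block and unfiltered fits and without either library.

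**Figure D2:**
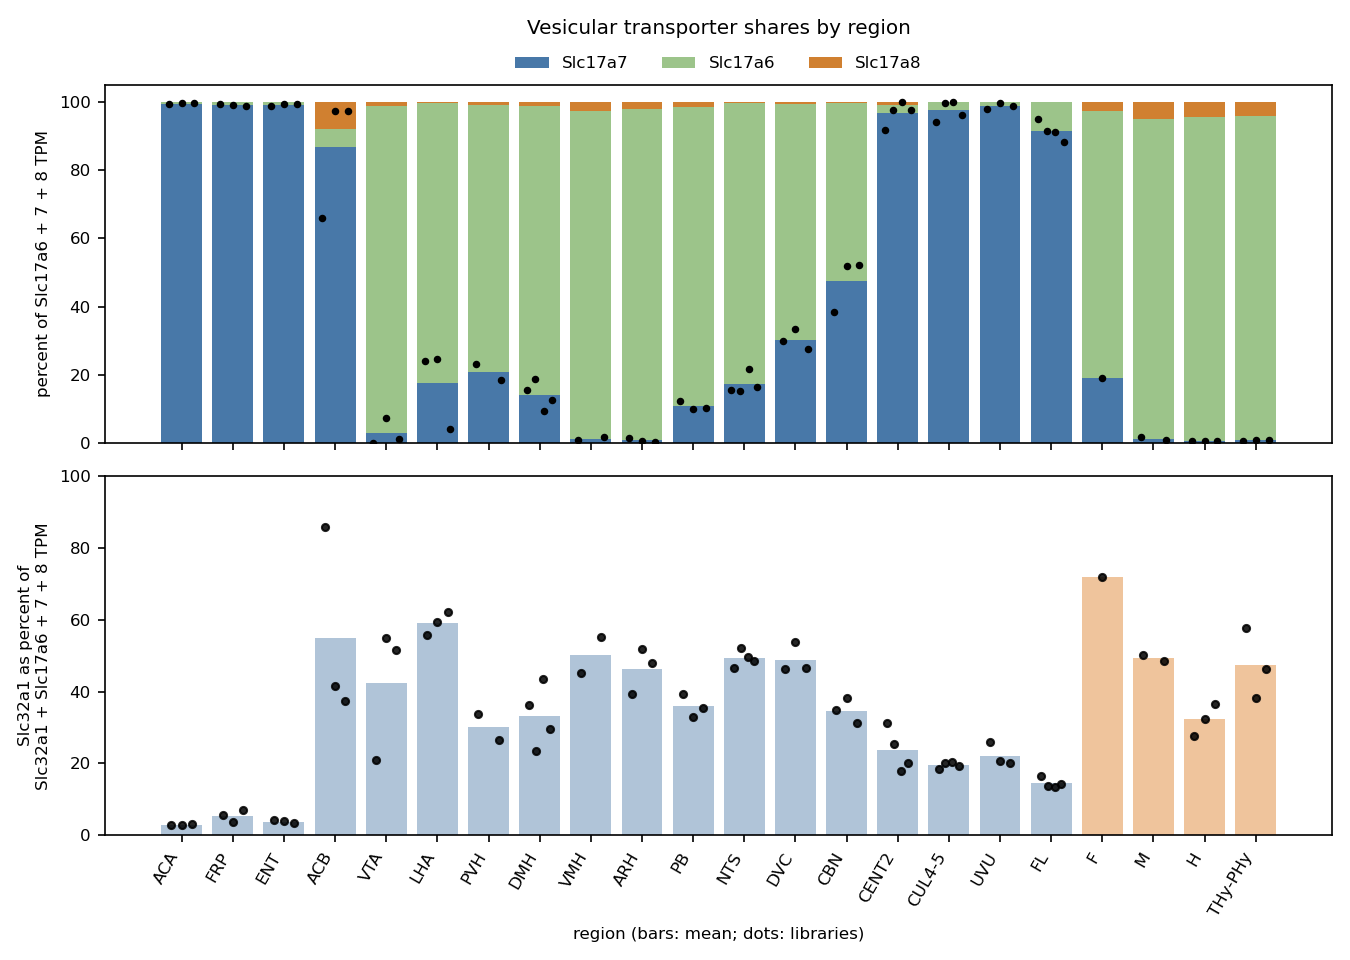
Vesicular transporter shares by region. The upper panel stacks the group mean percent of summed glutamate transporter TPM held by each gene, with points for the Slc17a7 percent of each library, and the lower panel shows Slc32a1 as a percent of the 4 vesicular transporters, with bars at group means and points for libraries. Slc17a7 holds at least 88.3% in every library of cortex and cerebellar lobules, 47.6% on average in CBN, and at most 33.6% in any adult hypothalamic or hindbrain library.

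Expressed as a share of the 3 glutamate transporters in each library, Slc17a7 held 98.6% to 99.5% in the cortical libraries and 88.3% to 99.9% in the cerebellar lobules. Group means were 86.8% ± 18.0 in ACB (n = 3), 47.6% ± 7.85 in CBN (n = 3), 30.4% ± 3.01 in DVC (n = 3) and 20.9% ± 3.33 in PVH (n = 2). The lowest adult means were 2.89% ± 3.86 in VTA (n = 3), 1.39% ± 0.51 in VMH (n = 2) and 0.93% ± 0.58 in ARH (n = 3). Slc17a7 thus ran from 252 times the Slc17a6 level in ACA to 0.0099 times in ARH, taken as ratios of group mean TPM. Embryonic F, with 1 library, held a share of 19.01%, while M, H and THy-PHy held 0.69% to 1.90%.

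The share of the inhibitory transporter separated regions in another order. Slc32a1 as a percent of the 4 vesicular transporters was 71.8% in embryonic F (n = 1), 59.2% ± 3.23 in LHA (n = 3), 50.2% ± 7.21 in VMH (n = 2), 49.2% ± 2.34 in NTS (n = 4) and 48.9% ± 4.30 in DVC (n = 3). It was 13.4% to 16.5% in the 4 FL libraries and 2.91% ± 0.12 in ACA (n = 3). ACB, at 85.9%, 41.6% and 37.5%, spread as widely as its Slc17a7 did.

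The GABA genes were present in every brain region. Slc32a1 (chr2:158610767-158615748, plus strand) spanned 41.8 to 199 TPM in adult group means, with ACB (199 ± 19.2, n = 3), LHA (187 ± 17.7, n = 3), DVC (171 ± 35.2, n = 3) and NTS (164 ± 11.4, n = 4) at the top. These were the 4 regions called higher. Their log2 fold changes were 1.24 ± 0.14, 1.16 ± 0.14, 1.03 ± 0.14 and 1.04 ± 0.12, and against adult regions alone they fell below the fold limit (0.94, 0.86, 0.73 and 0.74). The DVC call also missed that limit without DVC replicate 2 (0.84), and the NTS call with library totals and with limma (0.95 to 0.97). ACA was the adult region called lower (-1.03 ± 0.17), at -0.98 without ACA replicate 1.

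Gad1 (chr2:70553072-70602014, plus strand) had the highest gene TPM of the 4 inhibitory genes in every adult region, summed over all its transcripts, with group means from 178 ± 17.9 TPM in NTS (n = 4) to 602 ± 63.9 in UVU (n = 3). It was called higher in FRP, ACB, LHA, CENT2, CUL4-5 and UVU, and lower in the 4 embryonic regions. In FRP the libraries held 435, 251 and 734 TPM, against 196 to 225 TPM in ACA and 217 to 250 in ENT, and the call was lost without FRP replicate 3 (log2 fold change 0.68 against 1.09). CENT2, CUL4-5 and UVU, where Purkinje cells and interneurons are GABA cells, held 446 to 675 TPM in their 11 libraries. FL held 244 to 312 TPM and did not overlap them. The Gad1 calls in these 3 lobule groups and in ACB, LHA and FRP passed the fold limit only with the embryonic regions among the others (0.62 to 0.89 against adult regions).

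That place in the order turned on which Gad1 transcripts were counted. For the full-length transcripts alone, Gad2 stood above Gad1 in group means of 10 of 18 adult regions (ACB, VTA, the 5 hypothalamic territories, PB, NTS and DVC, by less than the larger SD in LHA, ARH, VTA, PB and DVC), at 155 and 126 against 71.0 and 68.3 TPM in the PVH libraries and 139 ± 30.1 against 86.1 ± 20.9 TPM in DMH (n = 4). Full-length Gad1 was the highest of the inhibitory genes in 7 adult regions, namely the cortical regions and the cerebellar lobules. In NTS it was 45.8 to 70.2 TPM, below Slc32a1 and Slc6a5 in every library. In CPM (counts scaled to the library total, with no correction for length), Gad2 exceeded Gad1 in 8 adult regions, with 426 against 295 in DMH.

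Gad2 (chr2:22622205-22693874, plus strand) followed another order. ACB (234 ± 14.6 TPM, n = 3), LHA (187 ± 12.4, n = 3) and VMH (161 ± 17.2, n = 2) led and were called higher, and FL (36.2 ± 4.42, n = 4) and embryonic H (26.4 ± 5.89, n = 3) were called lower. The VMH call fell below the fold limit without VMH replicate 2 (0.98). CENT2, CUL4-5 and UVU held ranks 2, 3 and 1 of the 22 brain regions for Gad1 and ranks 10, 17 and 16 for Gad2. Gad1 made up 91.7% ± 0.52 of the summed Gad1 and Gad2 TPM in UVU (n = 3), 91.0% ± 0.34 in CUL4-5 (n = 4), 88.7% ± 0.62 in FL (n = 4) and 88.6% ± 3.85 in CENT2 (n = 4). In the 5 hypothalamic territories it made up 59.9% to 75.9% per library, and in cortex 81.4% to 90.3%. From the full-length transcripts alone these ranges were 31.3% to 52.1% in the hypothalamus and 56.7% to 75.9% in cortex, and 57.4% to 78.4% in the cerebellar lobules.

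The glycine neuron marker was nearly absent from the forebrain. Slc6a5 (chr7:49910146-49963856, plus strand) was 137, 144, 149 and 156 TPM in NTS and 111, 143 and 103 TPM in DVC. CBN held 58.7, 31.0 and 24.8 TPM, FL 24.8, 20.7, 18.9 and 38.9 TPM, UVU 13.1, 11.4 and 12.3 TPM, and PB 7.92, 10.8 and 12.5 TPM. All cortical, accumbens and hypothalamic libraries lay at or below 0.459 TPM, and the highest VTA library held 1.17 TPM. Slc6a5 was called in 21 of 22 regions, higher in 9 (PB, NTS, DVC, CBN, the 4 lobule groups and embryonic H) and lower in 12. VTA was the exception (-0.57 ± 0.34). The lower call in M was lost without either M library (adjusted p = 0.28 and 0.0522, edgeR) and with library totals (adjusted p = 0.0616), and that in THy-PHy fell below the fold limit without THy-PHy replicate 3 (-0.88). The log2 fold change was 7.10 ± 0.15 in NTS, where the level of Slc6a5 was 0.897 times that of Slc32a1, as a ratio of group means. In CBN that ratio was 0.366 and in PB 0.0984.

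**Figure D3:**
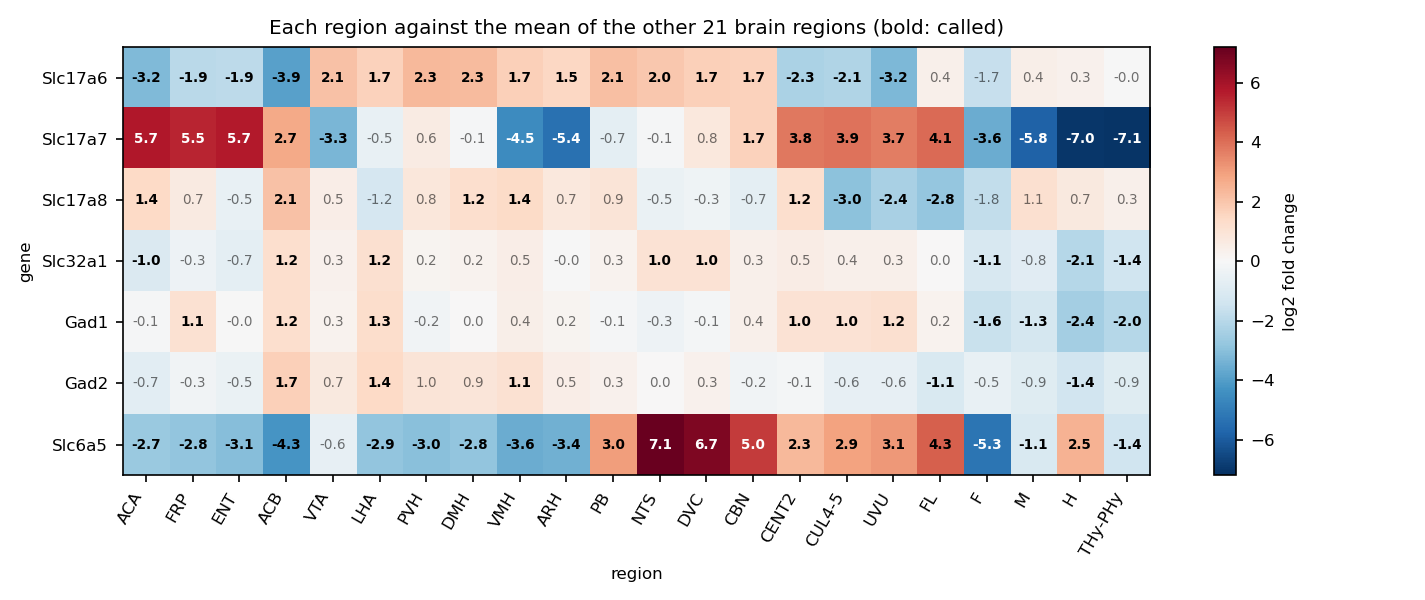
Log2 fold change of each gene in each brain region against the mean of the other 21 brain regions, from edgeR, with called values in bold, red higher and blue lower. Slc17a6 and Slc17a7 are both called higher in CBN and in no other region, and Slc6a5 is called higher from PB to FL and in embryonic H.

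Within the cerebellum, CBN was compared with the 4 lobule groups because the deep nuclei hold projection neurons of glutamate, GABA and glycine type and the lobules hold granule and Purkinje cells. Slc17a6 was 112, 94.2 and 96.7 TPM in CBN and 0.23 to 60.8 TPM in the lobules, so the groups did not overlap. It was higher in CBN by 3.33 ± 0.38 on the log2 scale (adjusted p = 1.70e-10, edgeR). Slc17a7 was lower (log2 fold change -2.10 ± 0.44, adjusted p = 6.44e-05, edgeR), with 71.1, 102 and 106 TPM against 338 to 548 TPM. Slc6a5 was higher by 1.80 ± 0.22 (adjusted p = 1.54e-09), although FL replicate 4 (38.9 TPM) overlapped CBN. These 3 of 7 genes were called, where 16.8% of all genes were. Slc32a1 (0.03 ± 0.17) and Gad2 (0.36 ± 0.16) were not called, and Gad1 (-0.47 ± 0.17) missed the fold limit.

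The shares turned the same way. Slc17a7 fell from 95.9% ± 3.78 of the glutamate transporters in the lobules (n = 15) to 47.6% ± 7.85 in CBN (n = 3), which was the smallest p possible in an exact two-sided permutation test (p = 0.00245, adjusted over 21 share tests 0.0257). The Slc32a1 share was 34.7% ± 3.44 in CBN against 19.8% ± 4.83 (the same p and adjusted p, exact permutation test), and the Gad1 share 83.1% ± 1.88 against 89.9% ± 2.30 (p = 0.0049, adjusted 0.0343, exact permutation test). With 2 CBN libraries instead of 3 no adjusted p passed 0.05 (0.0583 to 0.0849, exact permutation test), while the differences kept their direction. The smallest p possible is larger with fewer libraries, so this loss cannot show that the differences rested on 1 library. CBN libraries also held 11140 to 18327 TPM of 6 oligodendrocyte markers, against 1360 to 3731 TPM in CENT2, CUL4-5 and UVU and 8691 to 11701 TPM in FL. The choroid plexus marker Ttr reached 12242 TPM in CBN replicate 1. The part of either in these differences was not tested.

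FL differed from the other lobules in several of the 7 genes. Slc17a6 was 27.3, 45.9, 49.2 and 60.8 TPM there, while CUL4-5 spread from 0.23 to 29.4 TPM (29.4, 1.35, 0.23 and 19.8) and CENT2 from 0.75 to 18.9. The granule cell marker Gabra6 was 227 to 421 TPM in FL, 408 to 749 TPM in the other lobules and 28.7 to 84.8 TPM in CBN. UVU and FL together, the lobules linked to the vestibular system, were compared with CENT2 and CUL4-5. Slc6a5 was the gene called (1.08 ± 0.21, adjusted p = 1.53e-04, edgeR, background 2.56%), with 11.4 to 38.9 TPM against 5.33 to 11.7 TPM. The 2 lobules were unlike in it. UVU (11.4 to 13.1 TPM) overlapped CUL4-5 (10.2 to 11.7 TPM), while FL (18.9 to 38.9 TPM) lay above every library of the other lobules. The Slc6a5 call missed the fold limit with limma (0.96 and 1.00 with the 2 pseudocounts) and without FL replicate 4 (0.92). Gad2 (-0.45 ± 0.13, adjusted p = 0.0162, edgeR) missed the fold limit, and Slc17a6 (0.75 ± 0.40) was not called.

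In the hindbrain, PB was compared with NTS and DVC. Slc6a5 was 13.3 times lower in PB (log2 fold change -3.74 ± 0.34, adjusted p = 5.19e-12, edgeR), the sole call among the 7 where 2.46% of all genes were called. The PB libraries (7.92 to 12.5 TPM) lay far from NTS and DVC (103 to 156 TPM). Slc32a1 followed within the fold limit (-0.74 ± 0.19, adjusted p = 6.31e-03, edgeR), at 112, 97.8 and 107 TPM in PB against 142 to 210 TPM. Slc17a6 (0.29 ± 0.48), Gad1 (0.12 ± 0.18) and Gad2 (0.13 ± 0.17) did not pass. The Slc32a1 share was 35.9% ± 3.24 in PB and 49.1% ± 2.99 in NTS and DVC, without overlap, and the Slc17a7 share 10.9% ± 1.20 against 22.9% ± 7.53. Each reached the smallest p that 3 against 7 libraries allow (0.0167, exact permutation test), with an adjusted p of 0.0583.

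In the cortex, ENT was compared with ACA and FRP. No gene of the 7 was called, where 3.86% of all genes were. With so low a share and only 7 genes, the absence of calls does not show that the regions are alike. At an unadjusted p of 0.05 in edgeR 2 genes passed, Slc17a8 (-1.49 ± 0.67) and Gad1 (-0.50 ± 0.19). DESeq2 and limma called none either. Slc17a8 was 1.24, 0.84 and 0.56 TPM in ENT and 1.56 to 3.46 TPM in ACA and FRP, which did not overlap. Gad1 was 217 to 250 TPM in ENT, which overlapped ACA (196 to 225 TPM) and lay below FRP (251 to 734 TPM).

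At E14.5 most of the 7 genes stood below their adult levels. THy-PHy was compared with the 5 adult hypothalamic territories. Slc17a6 was 36.3, 37.6 and 32.0 TPM against 82.1 to 220 (log2 fold change -1.85 ± 0.51), and Slc17a7 was 0.30 to 0.35 TPM against 0.475 to 51.7 (-4.84 ± 0.76). The GABA genes fell likewise, Slc32a1 to 52.1, 25.0 and 28.4 TPM (-1.77 ± 0.19), Gad1 to 83.0, 69.1 and 61.6 TPM (-2.27 ± 0.20) and Gad2 to 53.5, 37.3 and 41.4 TPM (-1.75 ± 0.18). The 5 adjusted p ran from 8.37e-15 to 1.36e-03 (edgeR). Slc6a5 went the other way (1.65 ± 0.45, adjusted p = 1.09e-03), but its levels were 0.63, 1.03 and 0.0614 TPM against 0.0886 to 0.401, and the call was lost without THy-PHy replicate 2 (0.83) and with limma. Slc17a8 (-0.23 ± 0.55) did not pass. These were 6 of 7 genes called, where 38.5% of all genes were (18.4% higher and 20.1% lower).

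Embryonic H was compared with PB, NTS and DVC, and 6 of 7 genes were called lower, where 44.1% of all genes were called, 23.1% higher and 21% lower. Slc17a7 was 0.16 to 0.41 TPM in H and 20.1 to 60.3 TPM in the adult nuclei (-6.69 ± 0.77). Slc32a1 was 9.20, 23.5 and 31.5 TPM (-2.71 ± 0.21), Gad1 16.8, 48.3 and 72.7 TPM (-2.15 ± 0.20), and Gad2 at most 31.5 TPM (-1.51 ± 0.19). Slc17a6 was 22.7, 47.5 and 50.4 TPM against 114 to 178 (-1.55 ± 0.51), and Slc6a5 7.17, 5.94 and 7.55 TPM against 7.92 to 156 (-2.96 ± 0.32). No H library overlapped the adult nuclei in these 6 genes. H replicate 1, the library with 22.6% mitochondrial TPM, held the lowest Slc17a6, Slc17a7, Slc32a1, Gad1 and Gad2 of the 3, and without it the same count of 6 genes was called (Slc17a6 -1.38, Slc32a1 -2.45 and Gad1 -1.91). The Slc17a7 share was 0.71% ± 0.03 in H (n = 3) and 19.3% ± 8.47 in the adult nuclei (n = 10; p = 0.00699, adjusted 0.0367, exact permutation test). It lost the threshold with 2 H libraries (adjusted p 0.0755 to 0.0971, exact permutation test), where the smallest p possible is also larger. Slc17a8 did not pass (0.65 ± 0.56). The embryonic libraries held 446 to 1423 TPM of 5 pan-neuronal markers, against 1497 to 5088 TPM in the adult libraries. These 5 markers were not alike. In region means Snap25 was 35.9 to 93.3 TPM in the embryo and 725 to 2929 TPM in the adult. Syt1 and Rbfox3 also lay lower in every embryonic region mean, and Nefl overlapped. Stmn2 was 822, 768 and 780 TPM in M, H and THy-PHy, above every adult region mean (184 to 644 TPM), and 321 TPM in F. Summed levels of 5 neural progenitor markers were 596 to 2377 TPM in the embryonic libraries, against 43.0 to 678 TPM in the adult ones. How much of the stage differences moved with these was not tested.

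**Figure D4:**
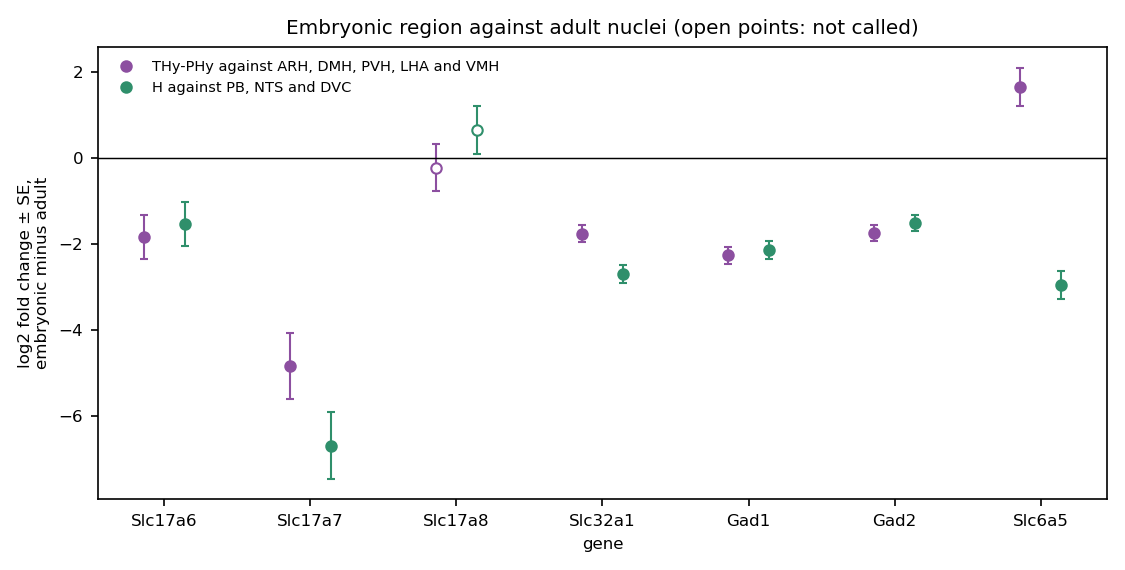
Log2 fold change of the 7 genes between E14.5 and adult tissue, for THy-PHy against the adult hypothalamus and for H against PB, NTS and DVC, with standard errors from edgeR and open points for genes not called. Slc6a5 is 1.65 in the hypothalamus and -2.96 in the hindbrain, and the GABA genes lie below 0 in both.

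The stage effects of both comparisons were set against each other in an interaction contrast. They share no sample. Slc6a5 differed by 4.60 ± 0.55 on the log2 scale (adjusted p = 9.42e-09, edgeR), where 9.73% of all genes were called. Slc32a1 differed by 0.95 ± 0.25 (adjusted p = 2.70e-03, edgeR), within the fold limit, with the larger decrease in H. For the other 5 genes the difference did not pass, with values from -0.88 ± 0.78 (Slc17a8) to 1.85 ± 1.45 (Slc17a7).

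Gad1 also changed in the make-up of its transcripts. Its annotation holds an alternative exon between the exons at chr2:70579111-70579201 and chr2:70585834-70585946, and known embryonic forms of the messenger carry such an exon, whose in-frame stop codon truncates the enzyme. In the annotation of this build (GRCm38, plus strand) 3 transcripts, Gad1-203, Gad1-205 and Gad1-207, start their use of it at the same base. Its coding part through the stop codon is shown because its transcripts differed in share between the embryonic and the adult brain libraries, with the stop codon in capitals.

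Gad1 alternative exon, chr2:70584420-70584456: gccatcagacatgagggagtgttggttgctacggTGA

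The exon continues beyond this stop to different ends, being 80 bases long in Gad1-203, 181 in Gad1-207 and 702 in Gad1-205. The 3 transcripts together took 6.10% to 11.3% of the estimated Gad1 counts in the 9 embryonic libraries (median 8.37%) and 0.0846% to 0.946% in the 57 adult libraries (median 0.24%). No adult library overlapped an embryonic one. Behind these shares stood 29.8 to 253 estimated counts per embryonic library and 3.19 to 121 per adult library. Group means were 10.7% in F (n = 1), 9.53% ± 1.77 in H (n = 3), 8.76% ± 0.81 in M (n = 2) and 7.35% ± 1.15 in THy-PHy (n = 3), and the highest adult means were 0.65% ± 0.26 in ACB and 0.61% ± 0.35 in FRP (n = 3 each). The mESC libraries gave 9.60% to 39.2%, from 2.17 to 8.89 estimated counts of 9.09 to 28.1 for Gad1, so high shares were also found outside embryonic brain. The exon was chosen after its values had been seen, so no test is given. The assignment of short reads to transcripts is an estimate, and reads of unspliced RNA cannot be told apart from reads of the longest form. That form, Gad1-205, made up most of the embryonic signal. It took 7.75% to 13.6% of Gad1 TPM over the embryonic region means. All 3 forms took 9.67% in THy-PHy, 12.9% in M, 13.8% in H and more in F. In ACB both Gad1-205 and all 3 forms stood at 0.874%. The part of unspliced RNA in these shares was not tested.

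**Figure D5:**
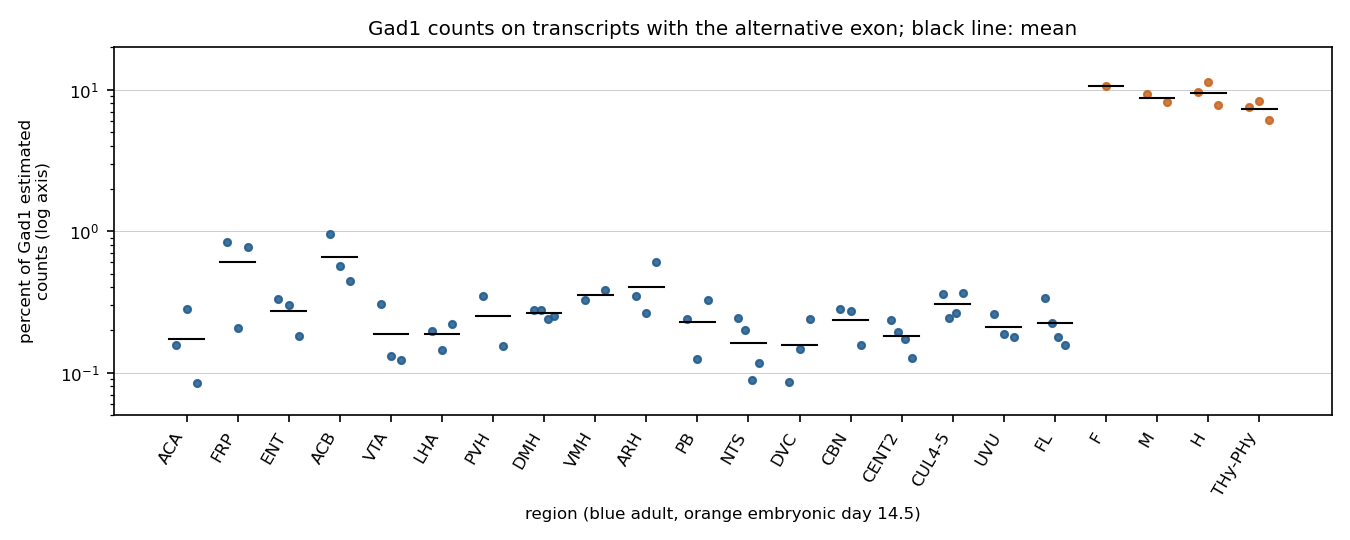
Percent of the estimated Gad1 counts assigned to the 3 transcripts with the alternative exon, per library of the 22 brain regions on a log axis, with lines at group means (mESC lines not drawn). The 9 embryonic libraries (orange) sit at 6.10% or above and the 57 adult libraries (blue) at 0.946% or below.

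The transcript for the full-length enzyme moved inversely, with 8.40% to 31.8% of Gad1 TPM in the embryonic libraries (median 16.8%) and 22.5% to 49.3% in the adult ones (median 33.4%), which overlap. When only the full-length transcripts of Gad1 and Gad2 were counted, the Gad1 share lay 21.1 percentage points lower in THy-PHy than in the adult hypothalamus and 29.1 points lower in H than in the adult hindbrain nuclei. With all transcripts these differences were 6.62 and 12.2 points, the second running from 5.32 points without H replicate 1 to 18.7 points without H replicate 3. That count of full-length forms was added after the data had been seen.

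In mESC lines the 7 genes were at or near background. Slc17a6 had at most 1 count in any library, Slc32a1 at most 0.0861 TPM, Gad2 at most 0.224 and Gad1 0.51 to 2.87 TPM. Against them, the mean of THy-PHy, M and H was higher for 6 genes and lower for Slc17a7 (58.3% of all genes were called, 30.3% higher and 28% lower). Slc17a7 was 1.13, 1.06, 1.36 and 1.66 TPM in the mESC libraries and 0.16 to 1.11 TPM in the 8 embryonic libraries, with a log2 fold change of -1.93 ± 0.69 (adjusted p = 9.94e-03, edgeR). The highest embryonic library (1.11 TPM) overlapped the lowest mESC library (1.06 TPM). The call was lost with limma at a pseudocount of 0.5 TPM (-0.91). A retained-intron transcript, Slc17a7-204, took 47.0% and 66.2% of this low level in the 2 lines. Its median was 56.6% over the embryonic region means, which ran from 0% to 90.2%. Over the adult region means the median was 14.3% and the highest 53.1%. In M, H and THy-PHy these shares rested on only 3 to 27 Slc17a7 counts per library.

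The wider machinery of the 3 transmitters was followed in 21 genes that recycle, take up or degrade them. Of 242 gene and region pairs among the 11 glutamate genes, 30 were called higher and 39 lower. Among the 6 GABA genes 20 of 132 were higher and 23 lower, and among the 4 glycine genes 13 of 88 were higher and 14 lower, beside the same background of 9.76% and 6.45%. Most of the lower calls lay in the embryonic regions. Of the 21 genes, 14 were lower in F, 14 in M, 13 in H and 15 in THy-PHy, and at most 3 in any adult region. The embryonic regions belonged to the comparison group of every adult region, and folds of these genes against adult regions alone are not given. Slc6a11 (GAT3, the astrocytic GABA transporter) was higher in VTA, the 5 hypothalamic territories, PB, NTS, DVC and CBN, the same 10 regions as Slc17a6. Slc6a9 (GLYT1, the glial glycine transporter) was higher in VTA, LHA, PB, NTS, DVC, CBN and FL, with 1.82 ± 0.08 in NTS and 1.90 ± 0.10 in CBN on the log2 scale. Gldc, a subunit of the glycine cleavage system, was higher in 6 regions and lower in 7, namely VTA, LHA, PVH, DMH, PB, NTS and DVC (-1.75 ± 0.16 in NTS).

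Glutamate uptake and synthesis genes followed their own regions. Slc1a6 (EAAT4, of Purkinje cells) was higher in the 4 lobule groups (2.58 to 3.64), and Slc1a3 (GLAST, abundant in Bergmann glia) in CENT2, CUL4-5 and UVU (1.58 to 1.91). Slc1a1 and Slc1a2, neuronal and glial glutamate transporters, were higher in the 3 cortical regions (1.31 to 1.55). Glul, the glutamine synthetase of astrocytes, was higher in VTA, PB, NTS, DVC and CBN (1.03 to 1.40). Slc1a1, Slc1a2, Slc1a6 and Glul were also called lower in all 4 embryonic regions, which formed part of the comparison group. Slc38a1, Slc38a2 and Amt were called in no region by edgeR.

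By stage, 17 of the 21 genes were called in THy-PHy against the adult hypothalamus, 15 lower and 2 higher (Slc6a13 1.22 ± 0.35 and Gldc 1.79 ± 0.14), beside 38.5% of all genes. In H against the adult hindbrain nuclei 16 were called, 14 lower and the same 2 higher, beside 44.1% of all genes. Among the lower ones were Slc6a11 (-5.70 ± 0.47 in THy-PHy and -5.30 ± 0.46 in H) and the glutaminase gene Gls2 (-4.86 ± 0.19 and -5.74 ± 0.19). Slc1a3 was lower in THy-PHy (-2.68 ± 0.14) and not called in H, a difference of stage effects of -2.68 ± 0.17 (adjusted p = 4.92e-17, edgeR). CBN against the lobules gave 7 calls, beside 16.8% of all genes, higher for Slc6a11 (2.57 ± 0.26), Glul (1.25 ± 0.10), Slc1a1 (1.09 ± 0.10) and Slc6a9 (1.09 ± 0.11) and lower for Slc1a6 (-2.34 ± 0.20), Slc1a3 (-1.96 ± 0.13) and Gldc (-1.64 ± 0.17). None of the 21 was called for VMH, PB, ENT or the pair of UVU and FL, where 2.04%, 2.46%, 3.86% and 2.56% of all genes were called by edgeR. DESeq2 and limma called none either, and 4, 7, 7 and 12 of the 21 passed an unadjusted p of 0.05 in edgeR.

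Against regions of the same stage only, 59 of the 85 regional calls of the 7 genes held. The other 26 were lost, among them the 4 higher calls of Slc32a1, the 6 higher calls of Gad1 and the VMH call of Gad2 (0.90). Nearly all lower calls of embryonic regions were lost too. These were Slc17a7 and Gad1 in F, M, H and THy-PHy, Slc32a1 in F, H and THy-PHy, Gad2 in H, and Slc6a5 in M and THy-PHy. Among the embryonic lower calls, only that of Slc6a5 in F held. For F, which had 1 library, the sign of Slc17a7 turned and was called in the other direction, from -3.59 against all other regions to 2.91 against the other embryonic regions, since its 3.20 TPM lay above every M, H and THy-PHy library (0.16 to 1.11 TPM) and below most adult ones.

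Genes whose regional pattern was most like each member were sought among 14710 genes by the correlation of log2(mean TPM + 1) over the 22 brain regions. These regions are not independent, since regions of the same stage shared mice. For Slc17a7 they were Tyro3 (Pearson's r = 0.94), Fam131b (0.94) and Mat2b (0.93), and for Slc17a6 Lipa (0.93), Pmvk (0.91) and Arhgap24 (0.91). Slc32a1 was nearest to Pptc7, Aldh5a1 (0.90 each) and Gpam (0.89), Gad1 to Abcg1 (0.92) and Gnb5 (0.91), and Gad2 to Ric8b (0.87), Sytl5 and Oprk1 (0.85 each). Slc6a5 was nearest to Cgnl1 (0.90), Grin3b (0.89) and Calr4 (0.88), and Slc17a8 to Rnf32 (0.77), 1700030J22Rik and Spag6l (0.76 each). Aldh5a1 (succinate semialdehyde dehydrogenase) is itself a gene of GABA breakdown. Among the 7 genes the highest correlations were Slc32a1 with Gad1 (0.76) and with Gad2 (0.72), the lowest Slc17a6 with Slc17a7 (-0.55), and Gad1 with Gad2 stood at 0.48.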

How the data were processed

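Libraries were made from polyadenylated RNA with a stranded kit and sequenced as short single-end reads, and the authors quantified them with Kallisto on the GRCm38 Ensembl transcripts after base calling with CASAVA 1.8.2, as the study's methods and the submitters' notes give it. The authors deposited gene TPM (the sum over a gene's transcripts) and, per transcript, estimated counts and TPM. Here the deposited estimated counts of a gene's transcripts were added up and brought to whole numbers. Of the transcripts with deposited counts 98.8% were matched to a gene, and the rest held 0.418% to 0.767% of a library's counts. Reads of similar genes (Slc17a6, Slc17a7 and Slc17a8, or Gad1 and Gad2) are divided by estimation.

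Samples were grouped by region label. Levels, shares and ratios used gene TPM. Tests across genes used edgeR 4.0.16 (R 4.3.3) with TMM scaling, filterByExpr and the quasi-likelihood test on all 70 libraries in 1 model of 24 groups, regions weighted equally, with Benjamini-Hochberg adjustment over 19980 genes. F, with 1 library, was assumed to vary like the other groups. Each region was set against the mean of the other brain regions, and 8 further contrasts compared neighbouring regions or stages. Shares were compared by exact two-sided permutation tests over libraries (scipy 1.17.1). Alternatives were DESeq2 1.42.0, library totals as scaling, no filter, a model without mESC, the replicate number as a block, limma 3.58.1 on log2(TPM + 0.5) and log2(TPM + 0.1), same-stage comparison groups, and leaving out each library. The edgeR procedure was tested on simulated data. No replicate pair was alike within counting noise (lowest chi-square per gene 2.59 over 74 pairs).

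The genes named were the 7 members, 21 genes that handle the transmitters, the 3 genes most alike to each member (region mean of at least 5 TPM somewhere) and fixed cell type markers. The members and lists were chosen with earlier results of these data known. Some of these genes are not reported here.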

Additional observations from a re-analysis of the deposited data

Results flagged for a closer look

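In 4 of 35 groups of 4 libraries, 1 library stood apart from the others by Dixon's test, where chance gives about 1 in 20 groups. Slc32a1 was 109 TPM in FL replicate 1, against 84.5 to 87.5 TPM in the other FL libraries. Slc6a5 was 0.401 TPM in DMH replicate 2, 5.33 TPM in CENT2 replicate 1, the library with the highest serotonin neuron markers, and 11.7 TPM in CUL4-5 replicate 3. The difference between the stage effects in hypothalamus and hindbrain passed its test for Slc32a1 (0.95 on the log2 scale) and for Slc6a5 (4.60).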

How the results depend on the processing

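Over the 154 gene and region pairs, calls numbered 39 to 46 higher and 37 to 40 lower across tools, scalings and filters, and 44 to 47 and 38 to 39 when each library was left out in turn, each time retesting only the contrasts that held it. The replicate numbers of the labels did not pair the libraries (median correlation of deviations 0.0124 for same-numbered and -0.00471 for other pairs, with 25 of 69 libraries correlating best with their own number). The replicate block gave 45 higher and 39 lower calls. Under it the Slc17a8 call in VMH was lost and no other. Library totals shifted the median of all genes by -0.24 to 0.18 in the region contrasts.

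For UVU and FL against CENT2 and CUL4-5 the count of called genes was 2 with DESeq2, which added Slc17a8, and 0 with limma at both pseudocounts. Leaving out 1 library gave 0 to 1 calls for VMH and 0 to 2 for UVU and FL. Against regions of the same stage, signs turned for Gad1 (0.27), Slc17a7 (2.91) and Slc32a1 (0.28) in F and for Gad1 (0.74), Slc17a7 (0.062) and Slc6a5 (0.27) in M. With limma signs turned for Slc17a8 in CENT2 (-0.36), Slc32a1 in CBN against lobules (-0.17 at both pseudocounts, and -0.014 with library totals), Slc17a7 in UVU and FL (-0.018 at both), and in ENT for Gad2 (-0.013 at both) and Slc17a7 (-0.0014 at both). The cause was not tested.

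Leaving out 1 library turned the sign of Slc17a8 in CENT2 (-0.82 to 1.61), Slc17a6 in VMH against the other hypothalamic regions (-0.54 to 0.038), in CBN against lobules Slc17a8 (-0.24 to 1.47) and Slc32a1 (-0.10 to 0.10), Slc17a7 in UVU and FL (-0.043 to 0.088), in ENT Gad2 (-0.047 to 0.14), Slc32a1 (-0.10 to 0.070) and Slc6a5 (-1.76 to 0.28), and Slc17a8 in THy-PHy (-0.81 to 0.15) and H (-0.032 to 0.98).

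Share differences, in percentage points, passed the threshold under some alternatives only. With estimated counts these were PB (Slc17a7 -10.4, Slc32a1 -13.4), H (Slc32a1 -15.7, Gad1 -11.4) and THy-PHy (Gad1 -9.33). With regions weighted equally they were PB (Slc17a7 -12.9, Slc32a1 -13.2), and with full-length Gad1 and Gad2 transcripts THy-PHy (Gad1 -21.1) and H (Gad1 -29.1). The Gad1 share turned in VMH with full-length transcripts (0.181) and in PB with estimated counts (-0.171). Leaving out 1 library gave -50.6 to -43.7 (Slc17a7), 13.3 to 16.7 (Slc32a1) and -7.78 to -5.94 (Gad1) in CBN, -19.6 to -17.0 (Slc17a7) and -18.7 to -5.32 (Gad1) in H, -8.17 to -5.59 (Gad1) and -1.41 to 8.41 (Slc32a1) in THy-PHy, -0.822 to 0.489 (Gad1) in UVU and FL, and -0.231 to 0.130 (Slc17a7) and -0.671 to 0.160 (Slc32a1) in ENT. Depth limited Slc17a8, with few counts in many libraries.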
